A study of Homo sapiens with 16 samples.

Results

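The 10 genes described here encode cyclins that drive human cells through the G1 phase of the cell cycle, the kinases they bind and the inhibitors of those kinases: the D-type cyclins CCND1 and CCND3, the E-type cyclins CCNE1 and CCNE2, the kinases CDK4, CDK6 and CDK2, and the inhibitors CDKN1B (p27), CDKN2C (p18) and CDKN2D (p19). They were taken by gene symbol from a table of 23354 genes, in which each of the 10 symbols stood once, and 9 of them passed the filter on low counts together with 14215 genes in all. CDKN2C did not pass it. The RNA came from 2 established human multiple myeloma cell lines, MM1S, which responds to the glucocorticoid dexamethasone (Dex), and MM1R, its Dex-resistant counterpart, so each line stands for a single cell line and not for myeloma in general. Cells of each line received vehicle, 0.1 µM TAK-981 (an inhibitor of the SUMO E1 enzyme), 1 µM Dex, or both agents at those doses (combo), the treatments lasting 48 h, and 2 libraries of total RNA depleted of ribosomal RNA were sequenced for each of the 8 groups. The labels do not say whether the 2 libraries of a group came from separate cultures, so the p-values measure only the spread between these libraries.

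D-type cyclins bind CDK4 or CDK6 and E-type cyclins bind CDK2, and both kinds of complex phosphorylate the retinoblastoma protein (RB1) and its relatives. This releases E2F transcription factors, which switch on genes for DNA replication, CCNE1 and CCNE2 among them. INK4 inhibitors (CDKN2A, CDKN2B, CDKN2C and CDKN2D) bind CDK4 and CDK6, whereas CIP/KIP inhibitors (CDKN1A, CDKN1B and CDKN1C) bind whole cyclin-kinase complexes, CDK2 complexes foremost. In multiple myeloma, a cancer of plasma cells, tumours commonly express 1 D-type cyclin at a high level, often through a chromosomal translocation.

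The total count per library ran from 15707587 to 24796539. All 8 plasma cell markers (SDC1, TNFRSF17, CD38, SLAMF7, IRF4, PRDM1, XBP1 and MZB1) were detected in all 16 libraries, CD38 at the lowest level, and their summed level ran from 3370 to 3524 CPM (counts scaled by TMM to a common library size) in the MM1S combo group, the lowest, and from 5992 to 6135 CPM in vehicle-treated MM1R cells, the highest. CD3D, a T cell marker, was at 0 in every library. CD3E reached 5.33 CPM, and the sum of the 3 T cell markers was 3.49 to 3.52 CPM in vehicle-treated MM1S cells and 0.619 to 0.880 CPM with combo. The monocyte and early B cell marker sums stayed at or below 0.557 CPM in every library, and the part of these markers in the results below was not tested. The 2 libraries of the MM1S TAK-981 group and the 2 of the MM1S Dex group differed most from each other, with chi-square values per degree of freedom of 21.2 and 19.2, against 2.08 to 9.14 in the other groups, and no pair agreed within sampling noise. Where leaving out 1 of these libraries changed a call given below, the value without it stands beside it.

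Levels of different genes were compared as CPM per kb of the gene length in the table. In vehicle-treated MM1S cells CDKN1B was the most abundant of the 10 at 120 ± 0.336 CPM per kb (SD, n = 2), followed by CDK4 at 52.1, CDK6 at 28.9, CDK2 at 27.7, CCNE1 at 13.2 and CCND3 at 8.29 CPM per kb. CDKN2D at 3.90 and CCNE2 at 3.75 CPM per kb came next with overlapping libraries, then CCND1 at 3.07 CPM per kb, and CDKN2C was at 0. In vehicle-treated MM1R cells CDKN1B, at 96.5 CPM per kb, again led, CDK2 at 29.9 stood just above CDK6 at 28.4 CPM per kb, and CCND1 was at 0.945 CPM per kb. CCNE2 and CDKN2D overlapped there too. CDKN1B thus stood above each cyclin and kinase of the group in mRNA per length in both lines.

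**Figure D1:**
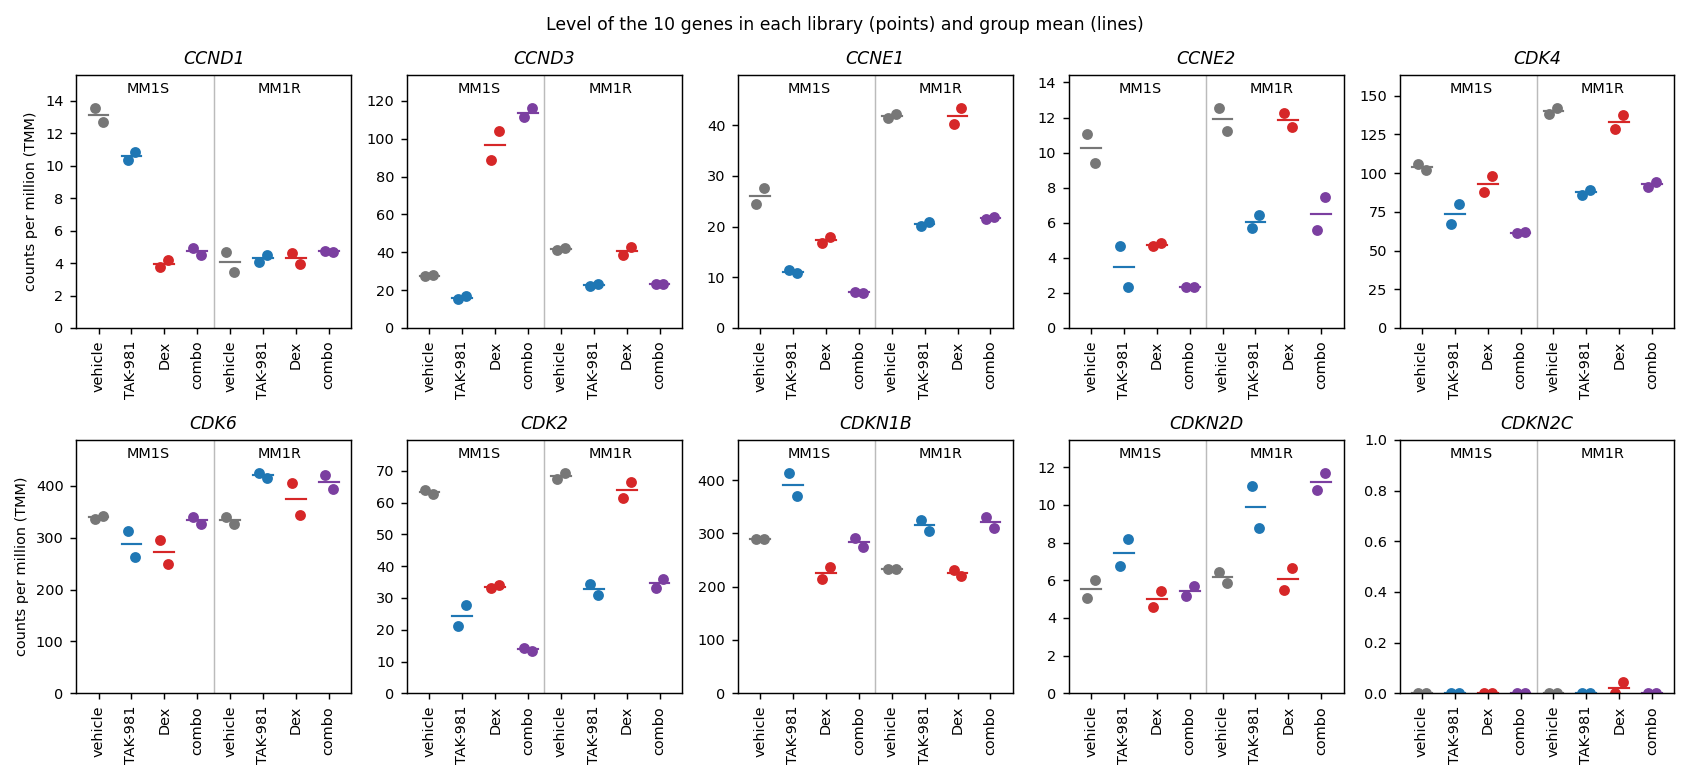
Level of each of the 10 genes, in CPM after TMM scaling (vertical axes, linear from 0), in the 2 libraries (points) of each of the 8 groups, with the group mean as a line; MM1S groups stand left of the grey line and MM1R groups right of it. CCND3 stood at 88.8 to 116 CPM in the MM1S libraries given Dex or combo and at no more than 42.7 CPM in any other library, and CDKN2C had 1 count in 1 of 16 libraries.

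CCND3 and CCND1 moved in opposite directions with Dex in MM1S cells. CCND3, which the table places on chromosome 6 from 41902671 to 42016610 (hg19, minus strand), encodes cyclin D3, the D-type cyclin of many lymphoid cells. It was at 27.2 and 27.9 CPM in the 2 vehicle libraries of MM1S, at 15.2 and 16.8 CPM with TAK-981, at 88.8 and 104 CPM with Dex and at 111 and 116 CPM with combo. The libraries with Dex, alone or with TAK-981, all stood above the others, and those with TAK-981 alone stood below vehicle. CCND3 rose with Dex in MM1S by 1.81 on the log2 scale (standard error 0.08, edgeR adjusted p = 5.53e-12), a 3.505-fold change. It fell by 0.78 with TAK-981 alone (standard error 0.09, edgeR adjusted p = 1.42e-06). In bulk RNA, fewer cells of a kind and less RNA per cell cannot be told apart, here and in all results below.

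In MM1R cells CCND3 was at 41.2 and 42.2 CPM with vehicle, at 22.2 and 23.1 CPM with TAK-981, at 38.6 and 42.7 CPM with Dex and at 23.4 and 23.4 CPM with combo. Both libraries with TAK-981 and both with combo stood below the 4 libraries without TAK-981. The log2 fold change with TAK-981 was -0.88 (standard error 0.09, edgeR adjusted p = 1.31e-07). Its difference from the fall in MM1S was -0.09 (95% interval -0.36 to 0.17, edgeR adjusted p = 0.709). With Dex the log2 fold change in MM1R was -0.04 (95% interval -0.21 to 0.13, edgeR adjusted p = 1), and the difference from the Dex response of MM1S was -1.84 (standard error 0.12, edgeR adjusted p = 1.5e-09). In MM1S the combo level of CCND3 exceeded the sum of the 2 single-agent changes on the log2 scale by 1.02 (standard error 0.12, edgeR adjusted p = 1.81e-05). Combo exceeded TAK-981 alone 7.12-fold. Against Dex alone combo was higher by 0.24 (edgeR adjusted p = 0.0149), a value that became 0.13 without MM1S Dex replicate 1 (edgeR adjusted p = 0.209), 0.20 without MM1S combo replicate 2 (edgeR adjusted p = 0.1) and 0.37 without MM1S Dex replicate 2.

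CCND1 (chromosome 11, 69455873 to 69469242, hg19, plus strand) encodes cyclin D1, the partner of CDK4 and CDK6 that myelomas with a t(11;14) translocation express. Its counts were low, between 72 and 289 per library. In MM1S it was at 13.6 and 12.7 CPM with vehicle, 10.3 and 10.9 CPM with TAK-981, 3.73 and 4.19 CPM with Dex and 4.95 and 4.51 CPM with combo. The 4 libraries with Dex were below the 4 without it. CCND1 fell with Dex in MM1S by 1.73 on the log2 scale (standard error 0.14, edgeR adjusted p = 1.22e-08). With TAK-981 the change of -0.31 passed the threshold (edgeR adjusted p = 0.0393) but not without any 1 of the 4 libraries compared, when it ran from -0.36 to -0.26 with edgeR adjusted p from 0.0584 to 0.196. All 8 libraries of MM1R held between 3.42 and 4.75 CPM. In those cells the CCND1 change was 0.08 with TAK-981 (95% interval -0.25 to 0.42, edgeR adjusted p = 0.686) and 0.09 with Dex (95% interval -0.24 to 0.41, edgeR adjusted p = 1). The Dex response of MM1R exceeded that of MM1S by 1.82 (standard error 0.21, edgeR adjusted p = 3.08e-06). CCND1 in vehicle-treated MM1R differed from vehicle-treated MM1S by -1.70 on the log2 scale (standard error 0.13, edgeR adjusted p = 1.37e-08), so that Dex-treated MM1S libraries and vehicle-treated MM1R libraries overlapped in CPM.

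CCND2, the D-type cyclin that is not among the 10 genes, was the most abundant of the family by far. In vehicle-treated cells it was at 353 ± 13.6 CPM per kb in MM1S and 463 ± 8.93 CPM per kb in MM1R (SD, n = 2). CCND2 fell in MM1S, with log2 fold changes of -0.75 with TAK-981 (edgeR adjusted p = 3.18e-09), -0.78 with Dex (edgeR adjusted p = 2.32e-09) and -1.69 with combo (edgeR adjusted p = 1.43e-14), and in MM1R it fell by 0.31 with TAK-981 (edgeR adjusted p = 0.000156). Of the summed CPM per kb of the 3 genes, CCND3 took 2.19% and 2.37% in the vehicle libraries of MM1S, 2.16% and 2.27% with TAK-981, 11.7% and 13.01% with Dex and 24.2% and 23.2% with combo. In MM1R the CCND3 share ran from 1.73% to 2.75% over all 8 libraries. CCND2 still held 75.0% and 76.1% in the combo libraries of MM1S, and CCND1 held at most 1.14% in any library.

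**Figure D2:**
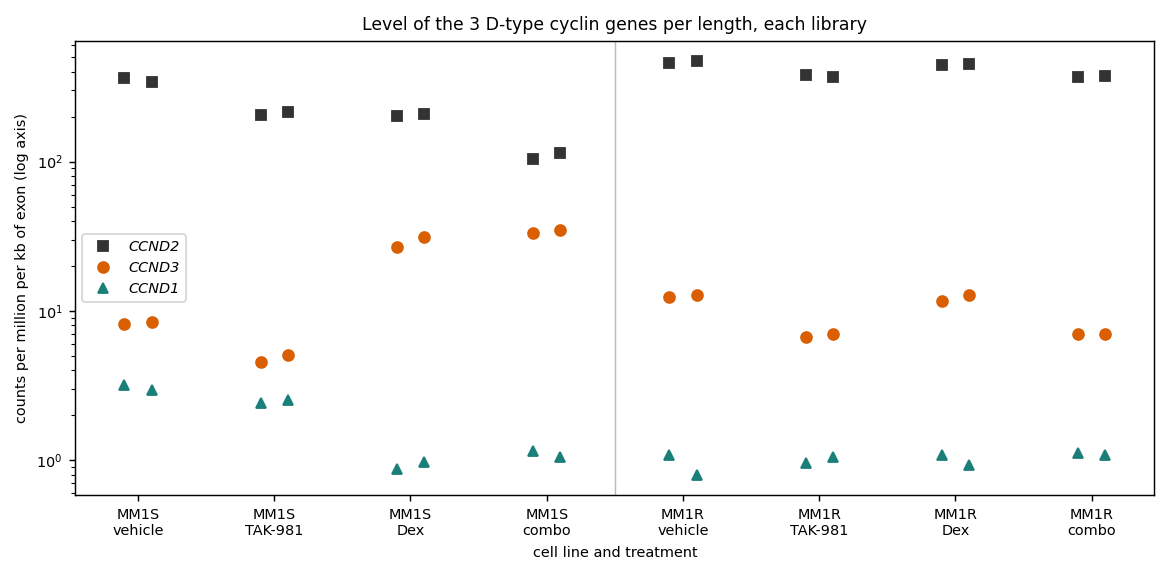
Level of CCND2, CCND3 and CCND1 in CPM per kb of gene length (vertical axis, log scale) in each of the 16 libraries, by cell line and treatment. CCND2 is the highest in every library, and CCND3 comes closest to it in the MM1S combo libraries, where it takes 24.2% and 23.2% of the sum of the 3 genes.

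The E-type cyclins and their kinase CDK2 fell with TAK-981 in both lines and with Dex in MM1S. CCNE1 (chromosome 19, 30302901 to 30315215, hg19, plus strand) encodes cyclin E1. Its MM1S level was at 24.4 and 27.6 CPM with vehicle, 11.4 and 10.8 CPM with TAK-981, 16.7 and 18.0 CPM with Dex and 7.18 and 6.93 CPM with combo. No 2 of these 4 groups overlapped. CCNE1 fell with log2 fold changes of -1.22 with TAK-981 (standard error 0.09, edgeR adjusted p = 3.18e-09), -0.58 with Dex (standard error 0.09, edgeR adjusted p = 2.63e-05) and -1.88 with combo (standard error 0.10, edgeR adjusted p = 9.34e-12). The combo change departed from the sum of the 2 single-agent changes by -0.07 (95% interval -0.37 to 0.22, edgeR adjusted p = 0.769). In MM1R CCNE1 was at 41.4 and 42.2 CPM with vehicle, 20.1 and 20.8 CPM with TAK-981, 40.2 and 43.5 CPM with Dex and 21.6 and 21.9 CPM with combo. There the 4 libraries with TAK-981 were all below the 4 without it, and CCNE1 fell by 1.03 with TAK-981 (standard error 0.08, edgeR adjusted p = 8.19e-09).

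CCNE2 (chromosome 8, 95892453 to 95907482, hg19, minus strand) encodes cyclin E2 and was the less abundant of the pair, with 38 to 304 counts per library. It overlaps INTS8 on the other strand by 269 bases, and whether counting used strand is not given in the sources used here. In MM1S it was at 11.1 and 9.43 CPM with vehicle, 4.67 and 2.32 CPM with TAK-981, 4.66 and 4.84 CPM with Dex and 2.35 and 2.36 CPM with combo. The TAK-981 libraries differed from each other by 90 counts against 45, and their range took in the combo libraries. CCNE2 fell with log2 fold changes of -1.56 with TAK-981 (standard error 0.21, edgeR adjusted p = 7.03e-06), -1.11 with Dex (standard error 0.20, edgeR adjusted p = 0.000182) and -2.12 with combo (standard error 0.23, edgeR adjusted p = 3.37e-07). Without MM1S TAK-981 replicate 1 the change with TAK-981 was -2.15 and without MM1S TAK-981 replicate 2 it was -1.14, both called. Combo differed from TAK-981 alone by -0.56 (edgeR adjusted p = 0.127), by 0.03 without MM1S TAK-981 replicate 1 and by -0.98 (edgeR adjusted p = 0.00272) without MM1S TAK-981 replicate 2. In MM1R CCNE2 was at 12.6 and 11.2 CPM with vehicle and 5.69 and 6.45 CPM with TAK-981, and fell by 0.97 (standard error 0.18, edgeR adjusted p = 0.000247). The MM1R Dex libraries, at 12.2 and 11.4 CPM, lay within the vehicle range.

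CDK2 (chromosome 12, 56360556 to 56366568, hg19, plus strand) encodes the kinase that E-type and A-type cyclins activate. Its MM1S libraries stood at 64.0 and 62.6 CPM with vehicle, 21.1 and 27.7 CPM with TAK-981, 33.1 and 34.0 CPM with Dex and 14.3 and 13.4 CPM with combo. The 4 groups did not overlap. CDK2 fell with log2 fold changes of -1.38 with TAK-981 (standard error 0.10, edgeR adjusted p = 1.6e-09), -0.92 with Dex (standard error 0.10, edgeR adjusted p = 3.16e-07) and -2.19 with combo (standard error 0.11, edgeR adjusted p = 2.3e-12), to 0.219 times the vehicle level. In MM1R it was at 67.5 and 69.4 CPM with vehicle, 34.4 and 31.0 CPM with TAK-981, 61.5 and 66.7 CPM with Dex and 33.0 and 36.1 CPM with combo. TAK-981 and combo overlapped in that line, and the log2 fold change with TAK-981 was -1.07 (standard error 0.09, edgeR adjusted p = 3.62e-08). Of these 3 genes each had a smaller Dex response in MM1R than in MM1S by the test of the difference itself: 0.58 for CCNE1 (edgeR adjusted p = 0.000862), 1.11 for CCNE2 (edgeR adjusted p = 0.00337) and 0.82 for CDK2 (edgeR adjusted p = 0.000104). The same test for TAK-981 gave 0.20 for CCNE1 (edgeR adjusted p = 0.37), 0.59 for CCNE2 (edgeR adjusted p = 0.237) and 0.31 for CDK2 (edgeR adjusted p = 0.198). Without MM1S TAK-981 replicate 1 the CCNE2 difference was 1.18 (edgeR adjusted p = 0.00676), and without MM1S TAK-981 replicate 2 the CDK2 difference was 0.52 (edgeR adjusted p = 0.0113).

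**Figure D3:**
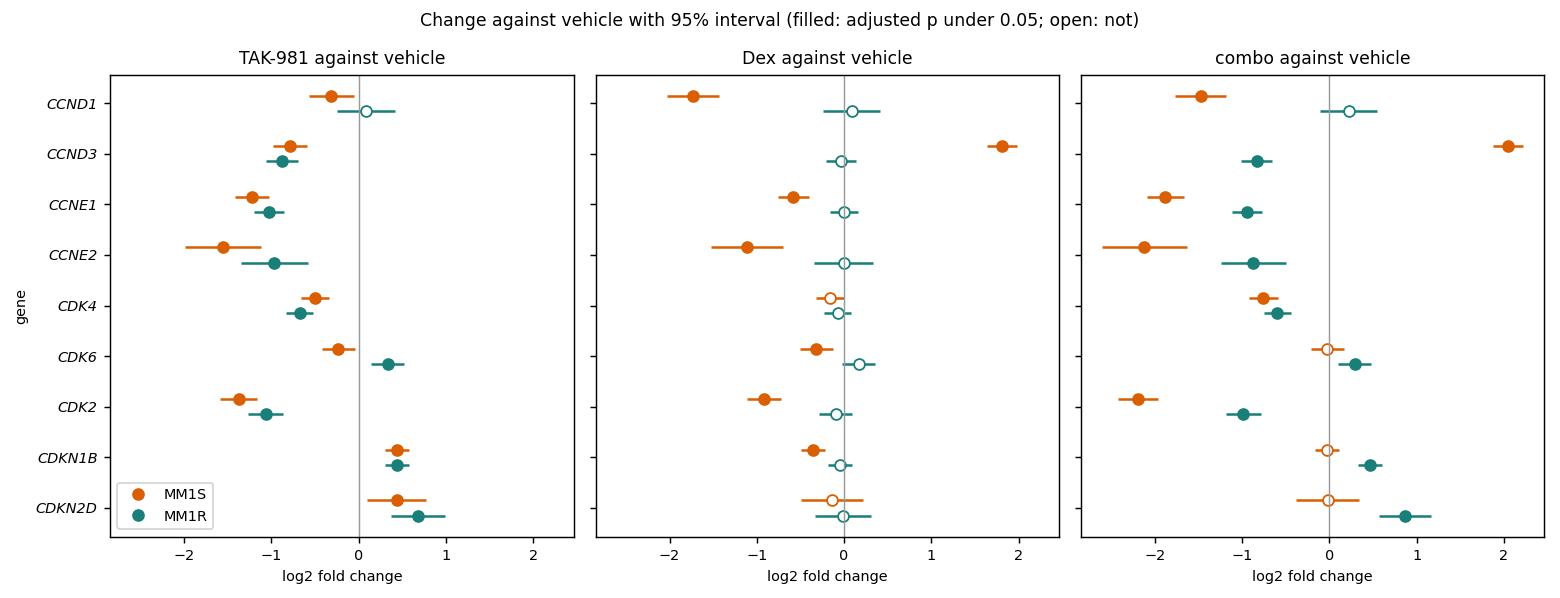
Log2 fold change against vehicle (horizontal axes) of the 9 genes that passed the filter, with its 95% interval (bars), for TAK-981, Dex and combo in MM1S (orange) and MM1R (green); filled points had an edgeR adjusted p under the threshold of 0.05. With Dex the MM1R points are all open and lie between -0.10 and 0.17, while the MM1S points run from -1.73 for CCND1 to 1.81 for CCND3.

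The kinases of the D-type cyclins differed from each other. CDK4 (chromosome 12, 58141510 to 58146230, hg19, minus strand) was at 106 and 102 CPM with vehicle, 67.2 and 80.0 CPM with TAK-981, 87.5 and 98.4 CPM with Dex and 61.3 and 61.7 CPM with combo in MM1S. The TAK-981 and combo libraries all stood below the vehicle and Dex libraries. CDK4 fell by 0.50 with TAK-981 (standard error 0.08, edgeR adjusted p = 2.68e-05), and its change with Dex was -0.16 (edgeR adjusted p = 0.0943), which became -0.25 without MM1S Dex replicate 2 (edgeR adjusted p = 0.0339). In MM1R CDK4 was at 138 and 142 CPM with vehicle, 86.2 and 89.1 CPM with TAK-981, 129 and 138 CPM with Dex and 91.1 and 94.2 CPM with combo. It fell by 0.68 with TAK-981 there (standard error 0.07, edgeR adjusted p = 5.59e-07). The responses of the lines to TAK-981 differed by -0.18 (edgeR adjusted p = 0.343), by -0.30 without MM1S TAK-981 replicate 1 (edgeR adjusted p = 0.036) and by -0.05 without MM1S TAK-981 replicate 2. CDK4 overlaps TSPAN31 on the other strand by 517 bases, so reads from that stretch cannot be assigned to 1 gene unless strand was used.

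CDK4 is one of the textbook targets of MYC, which binds the E-box CACGTG with its partner MAX, and its promoter held 3 such words. In the 300 bases around each RefSeq transcription start (250 before it to 50 after it, build GRCh38.p14), 7 of the 10 genes had an entry, the others being CCND1, CCNE2 and CDK2. The word CACGTG, which reads the same on both strands, had at least 1 match in 7.26% of 35116 such promoters. How many promoters held more than 1 match was not counted, so how unusual 3 matches are is not known here. The 3 CDK4 windows are shown because this is the only 1 of the 7 genes with more than 1 match in a promoter. They lie on the minus strand of chromosome 12, at chr12:57752509-57752538, chr12:57752489-57752518 and chr12:57752394-57752423, with the first E-box bases 216, 196 and 101 bases before the start and the E-box in capitals.
CDK4 window 1: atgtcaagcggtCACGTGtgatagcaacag
CDK4 window 2: atagcaacagatCACGTGgctgccatcgcc
CDK4 window 3: atgggtggcggtCACGTGcccagaacgtcc

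One of the 2 CDK6 promoters and 2 of the 3 CDKN2C promoters held 1 E-box each, and those of CCND3, CCNE1, CDKN1B and CDKN2D held none. None of the 7 genes' promoters held any of the E2F words TTTCCCGC, TTTCGCGC, TTTGCCGC or TTTGGCGC on either strand, which do not overlap the E-box word and occurred in 3.31% of all promoters. These letters were searched in these windows only, and a match or its absence says nothing of binding.

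CDK6 (chromosome 7, 92234235 to 92465941, hg19, minus strand) encodes the other kinase of the D-type cyclins and moved little, in opposite directions in the 2 lines. The MM1S libraries stood at 336 and 342 CPM with vehicle, 313 and 263 CPM with TAK-981, 295 and 250 CPM with Dex and 341 and 326 CPM with combo. The combo libraries overlapped vehicle, and the libraries of each single agent lay below it. In MM1R CDK6 was at 341 and 327 CPM with vehicle, 425 and 415 CPM with TAK-981, 406 and 344 CPM with Dex and 421 and 394 CPM with combo. CDK6 fell by 0.24 with TAK-981 in MM1S (edgeR adjusted p = 0.0374) and rose by 0.33 in MM1R (edgeR adjusted p = 0.00474), and the responses differed by 0.57 (standard error 0.13, edgeR adjusted p = 0.0167). CDK6 was the only 1 of the 9 genes called in that test of the difference, against 4.16% of all genes. The call was lost when any 1 of 6 of the 8 libraries, all but the MM1S TAK-981 pair, was left out (0.54 to 0.60, edgeR adjusted p from 0.0515 to 0.0934). The fall in MM1S was -0.25 without MM1S vehicle replicate 1 (edgeR adjusted p = 0.0993), -0.22 without MM1S vehicle replicate 2 (edgeR adjusted p = 0.135), -0.12 without MM1S TAK-981 replicate 2 (edgeR adjusted p = 0.32) and -0.37 without MM1S TAK-981 replicate 1. With Dex CDK6 fell by 0.32 in MM1S (edgeR adjusted p = 0.0088), a value that was -0.20 without MM1S Dex replicate 2 (edgeR adjusted p = 0.124) and -0.30 without MM1S vehicle replicate 2 (edgeR adjusted p = 0.0524). Combo stood 0.53 above the sum of the single-agent changes in MM1S (standard error 0.13, edgeR adjusted p = 0.0103).

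The inhibitors CDKN1B and CDKN2D rose with TAK-981 in both lines. CDKN1B (chromosome 12, 12870302 to 12875305, hg19, plus strand) encodes p27, which blocks CDK2 complexes. In MM1S it was at 289 and 290 CPM with vehicle, 413 and 370 CPM with TAK-981, 215 and 237 CPM with Dex and 292 and 275 CPM with combo. The TAK-981 libraries stood above vehicle, the Dex libraries below it, and combo on either side of it. CDKN1B rose by 0.44 with TAK-981 (standard error 0.07, edgeR adjusted p = 2.25e-05) and fell by 0.36 with Dex (standard error 0.07, edgeR adjusted p = 0.000273). In MM1R it was at 232 and 233 CPM with vehicle, 324 and 305 CPM with TAK-981, 231 and 220 CPM with Dex and 330 and 311 CPM with combo. CDKN1B rose by 0.44 with TAK-981 in MM1R (standard error 0.07, edgeR adjusted p = 2.3e-05), and the difference between the lines was 0.00 with a 95% interval of -0.20 to 0.19 (edgeR adjusted p = 0.996). The Dex responses differed by 0.31 (edgeR adjusted p = 0.019), which ran from 0.24 to 0.31 with edgeR adjusted p from 0.0536 to 0.0743 where 1 of 6 libraries was left out, all but MM1S Dex replicate 2 and MM1R Dex replicate 2.

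CDKN2D (chromosome 19, 10677138 to 10679655, hg19, minus strand) encodes p19, an INK4 inhibitor, and had 83 to 243 counts per library. Its MM1S libraries stood at 5.07 and 5.998 CPM with vehicle, 6.74 and 8.18 CPM with TAK-981, 4.56 and 5.45 CPM with Dex and 5.14 and 5.72 CPM with combo. Vehicle, Dex and combo overlapped, and TAK-981 stood above them. In MM1R CDKN2D was at 6.45 and 5.85 CPM with vehicle, 11.0 and 8.77 CPM with TAK-981, 5.51 and 6.68 CPM with Dex and 10.8 and 11.7 CPM with combo, so that the 4 libraries with TAK-981 stood above the 4 without it. It rose by 0.68 with TAK-981 in MM1R (standard error 0.15, edgeR adjusted p = 0.000771) and by 0.87 with combo (standard error 0.14, edgeR adjusted p = 5.67e-05). In MM1S the rise of 0.43 with TAK-981 (edgeR adjusted p = 0.0312) was not called without MM1S vehicle replicate 1 (0.32, edgeR adjusted p = 0.229) or MM1S TAK-981 replicate 2 (0.29, edgeR adjusted p = 0.227), nor with DESeq2 (0.42, adjusted p = 0.0881).

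CDKN2C, which encodes the INK4 inhibitor p18 (chromosome 1, 51433608 to 51440309, hg19, plus strand), had 1 count in all 16 libraries together, in an MM1R Dex library. A count of 0 allows up to 3 counts, which is 0.124 to 0.186 CPM per library, for counting error only. FAF1, 7.7 kb away, had 8 to 21 counts per library in MM1S and 36 to 71 in MM1R, and TTC39A had 4 to 25 counts over both lines. RNF11, 261.6 kb from CDKN2C, had 861 to 1437 counts and EPS15, 379.6 kb away, 3767 to 5017 counts per library. C1orf185, 127.6 kb away, had 0 counts in every library. The listed spans of LOC100132062 (same strand, 0 to 1 counts per library) and LOC100133331 (other strand, 26 to 52 counts) take in CDKN2C. Whether their exons overlap it was not tested. All these genes were named for their position. The other INK4 genes, on chromosome 9, separated the 2 lines. CDKN2A, which encodes p16 and p14ARF, had 0 to 9 counts per library in MM1S and 685 to 994 in MM1R. In the vehicle libraries 6 counts stood against 1905, a ratio of 267 after scaling (exact 95% interval 123 to 729, for counting error only). CDKN2B, which encodes p15, had 1 to 15 counts per library in MM1S and 33 to 81 in MM1R, and MTAP, whose listed span in the table takes in both genes, had 783 to 1191 counts in MM1S and 765 to 1174 in MM1R. CDKN2A was chosen for this description after its values were seen.

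**Figure D4:**
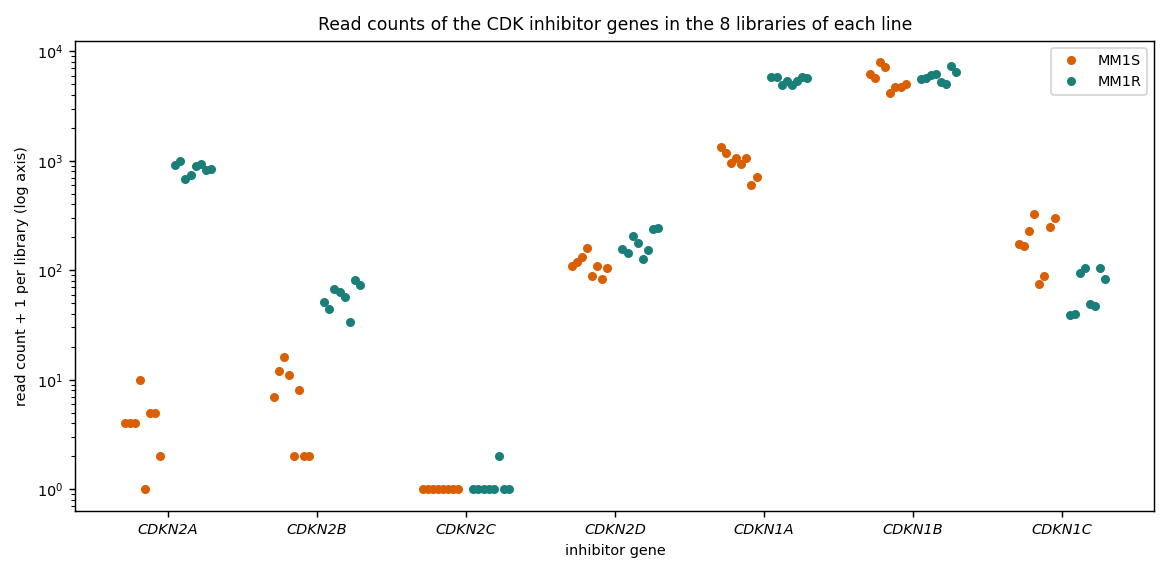
Read count plus 1 per library (vertical axis, log scale) of 7 CDK inhibitor genes in the 8 libraries of MM1S (orange) and the 8 of MM1R (green), treatments side by side. CDKN2A holds 0 to 9 counts in MM1S and 685 to 994 in MM1R, and CDKN2C holds 1 count in 1 of 16 libraries.

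Counted together, the 9 genes moved as follows. Beside each count stands the share of all 14215 genes that passed the same test in either direction, then its split by direction. With TAK-981 2 rose and 7 fell in MM1S (background 49%, 25.2% higher and 23.7% lower). In MM1R 3 rose and 5 fell (53.4%, 25.8% higher and 27.6% lower). The members' median log2 fold change was -0.50 in MM1S and -0.68 in MM1R, where the medians of all genes tested were 0.04 and 0.00. With Dex 1 rose and 6 fell in MM1S (42.3%, 20.8% higher and 21.5% lower). None of the 9 was called in MM1R, where edgeR called 0% of all genes. There 395 genes, none of the 9 among them, passed 0.05 before adjustment, and DESeq2 called none. With combo 1 rose and 5 fell against vehicle in MM1S (60.3%, 30.8% higher and 29.5% lower). In MM1R 3 rose and 5 fell with combo (51.5%, 24.8% higher and 26.7% lower). One of these 3 was CDK6 at 0.29 (edgeR adjusted p = 0.0122), which was not called without MM1R vehicle replicate 2 (0.26, edgeR adjusted p = 0.0857) or MM1R combo replicate 1 (0.24, edgeR adjusted p = 0.101). These comparisons share their vehicle libraries within a line.

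Adding TAK-981 to Dex raised 3 and lowered 4 of the 9 genes in MM1S (47.6%, 22.2% higher and 25.4% lower). In MM1R it raised 2 and lowered 5 (48.4%, 23.1% higher and 25.3% lower). Adding Dex to TAK-981 raised CCND3 and lowered 6 in MM1S (35.1%, 14.5% higher and 20.6% lower). Among these 6, CDK4 at -0.26 (edgeR adjusted p = 0.0152) and CDKN2D at -0.46 (edgeR adjusted p = 0.0388) lost their calls without MM1S TAK-981 replicate 2 (-0.13 and -0.31) and without either MM1S combo library (-0.27 to -0.25 and -0.54 to -0.38). CDK6, at 0.21 (edgeR adjusted p = 0.0777), was not called in MM1S. It ran from 0.09 to 0.34 with 1 library left out, and whether it was called depended on the library. In MM1R adding Dex to TAK-981 called none of the 9, with edgeR calling 0% of all genes. There 214 genes, again none of the 9, passed 0.05 before adjustment, and DESeq2 called no gene. For most of the genes that both agents lowered in MM1S no departure from an additive log2 change was called. Only CCND3 and CDK6 were called for it, both upward, of 9 genes (14.9% of all genes, 5.47% upward and 9.48% downward). In MM1R none of the 9 was (0%, with 400 genes but none of the 9 passing 0.05 before adjustment, and no gene called by DESeq2). CCND1 departed by 0.57 (edgeR adjusted p = 0.074), and CCNE2 by 0.55 (edgeR adjusted p = 0.309), which became 1.14 without MM1S TAK-981 replicate 1 (edgeR adjusted p = 0.0101) and 0.13 without MM1S TAK-981 replicate 2. The calls for CDK6 and CCND3 in the comparison of combo with Dex in MM1S were the weaker ones: CDK6 was 0.29 higher (edgeR adjusted p = 0.013), 0.18 without MM1S Dex replicate 2 (edgeR adjusted p = 0.153) and 0.26 without MM1S combo replicate 1 (edgeR adjusted p = 0.0808).

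Between the vehicle-treated lines 3 of the 9 genes were higher and 2 lower in MM1R (48.2% of all genes called, 25.6% higher and 22.6% lower). CCNE1 was higher in MM1R by 0.69 (standard error 0.08, edgeR adjusted p = 1.51e-06), CCND3 by 0.60 (standard error 0.08, edgeR adjusted p = 1.45e-05) and CDK4 by 0.43 (standard error 0.07, edgeR adjusted p = 0.000116). CCND1 was lower, as given above, and CDKN1B was lower, at -0.31 on the log2 scale (standard error 0.07, edgeR adjusted p = 0.000759). CDK2 at 0.11, CCNE2 at 0.21, CDKN2D at 0.16 and CDK6 at -0.02 were not called. The Dex response differed between the lines for 7 of the 9 genes (28.1% of all genes, 15% higher and 13.1% lower in MM1R). Of the 7, 6 had a higher value in MM1R and CCND3 a lower one. CDK4, at 0.09 (edgeR adjusted p = 0.576), and CDKN2D, at 0.13 (edgeR adjusted p = 0.727), were not called.

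The other 31 genes of a G1/S list, which holds E2F factors, their DP partners, the RB1 family, further cyclins, CDKs and inhibitors and the ubiquitin ligase parts that act on them, all passed the filter. The share of all genes called in either direction stands in parentheses, and its split by direction is given above for the same comparisons. With TAK-981 4 of the 31 rose and 17 fell in MM1S (49%), and 8 rose and 15 fell in MM1R (53.4%). With Dex 2 rose and 17 fell in MM1S (42.3%). None was called with Dex in MM1R (0%), where 1 of the 31 passed 0.05 before adjustment and DESeq2 called none. With combo 5 rose and 17 fell in MM1S (60.3%) and 8 rose and 16 fell in MM1R (51.5%). These counts were not repeated with a library left out. The medians of the 31 log2 fold changes were -0.30 with TAK-981 in MM1S, -0.22 with TAK-981 in MM1R and -0.29 with Dex in MM1S. The medians of all genes tested were 0.04, 0.00 and 0.01 in the same order.

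Among those that fell, E2F1, an activator of S-phase genes, was at 67.2 and 73.9 CPM with vehicle, 20.2 and 26.7 CPM with TAK-981, 27.3 and 37.2 CPM with Dex and 5.39 and 5.66 CPM with combo in MM1S. The combo libraries stood far below both single agents, and its combo change departed from the sum of the single-agent changes by -0.95 (standard error 0.22, edgeR adjusted p = 0.00721). That departure was not refitted with a library left out. E2F1 fell with TAK-981, with log2 fold changes of -1.59 in MM1S (edgeR adjusted p = 1.76e-08) and -1.22 in MM1R (edgeR adjusted p = 2.4e-07). CDK1, the kinase of mitotic entry, fell with TAK-981, at -1.497 in MM1S (edgeR adjusted p = 1.98e-11) and -1.01 in MM1R (edgeR adjusted p = 2.7e-09), and with Dex, at -1.16 in MM1S (edgeR adjusted p = 5.95e-10). CDC25A, the phosphatase that activates CDK2, fell with TAK-981, at -1.45 in MM1S (edgeR adjusted p = 1.35e-10) and -1.06 in MM1R (edgeR adjusted p = 2.33e-09). CCNA2, the A-type cyclin that binds CDK2 in S phase, fell in MM1S, at -1.33 with TAK-981 (edgeR adjusted p = 7.61e-11) and -1.10 with Dex (edgeR adjusted p = 1.01e-09). Its change with TAK-981 in MM1R was -0.92 (edgeR adjusted p = 7.07e-09). TFDP1, the DNA-binding partner of E2F factors, fell by 1.11 with TAK-981 in MM1R (edgeR adjusted p = 2.83e-10), and E2F7, a repressive E2F, fell by 1.36 with Dex in MM1S (edgeR adjusted p = 8.28e-11). Mean TFDP1 was also lower with TAK-981 in MM1S, at 99.9 against 182 CPM with vehicle. Mean E2F7 with TAK-981 was 80.6 against 171 CPM in MM1S and 89.6 against 135 CPM in MM1R. Apart from E2F1, these genes were picked by adjusted p within each comparison, so a comparison left out here does not mean no change.

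E2F5, an E2F that works with the RB1 relatives as a repressor, rose with TAK-981 by 0.94 in MM1S (edgeR adjusted p = 3.37e-06) and by 1.02 in MM1R (edgeR adjusted p = 1.94e-06). CDKN1C (p57) rose with TAK-981 by 0.78 in MM1S (edgeR adjusted p = 0.000115), 0.52 without MM1S TAK-981 replicate 2, and by 1.67 in MM1R (edgeR adjusted p = 2.23e-06). RBL2 (p130) rose by 0.26 with TAK-981 (edgeR adjusted p = 0.000349, and 0.0504 in the fit of only those 2 groups) and by 0.23 with Dex (edgeR adjusted p = 0.00168) in MM1S and by 0.22 with TAK-981 in MM1R (edgeR adjusted p = 0.00144), and E2F4 rose by 0.27 with Dex in MM1S (edgeR adjusted p = 0.0105), a call lost without MM1S vehicle replicate 1 (0.25, edgeR adjusted p = 0.0805) or MM1S Dex replicate 2 (0.21, edgeR adjusted p = 0.096). CDKN1A (p21) did not rise in MM1S: it fell, at -0.24 with TAK-981 (edgeR adjusted p = 0.00771) and -0.27 with Dex (edgeR adjusted p = 0.00417), and in MM1R its change with TAK-981 was 0.14 (edgeR adjusted p = 0.066). The fall with TAK-981 was not called without MM1S vehicle replicate 1 (-0.21, edgeR adjusted p = 0.0708) or MM1S TAK-981 replicate 1 (-0.17, edgeR adjusted p = 0.0793), nor the fall with Dex without MM1S Dex replicate 1 (-0.20, edgeR adjusted p = 0.0572). Its level in vehicle-treated MM1R, 238 and 239 CPM, was far above that in MM1S, 63.3 and 60.5 CPM, a difference of 1.94 on the log2 scale (standard error 0.07, edgeR adjusted p = 1.6e-13).

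RB1 itself was called at -0.30 with TAK-981 (edgeR adjusted p = 0.0342) and -0.29 with Dex (edgeR adjusted p = 0.0448) in MM1S. Its libraries there were uneven, at 69.9 and 52.7 CPM with TAK-981 and 68.5 and 54.9 CPM with Dex against 75.5 and 75.6 CPM with vehicle. Without MM1S TAK-981 replicate 2 the first value was -0.11 (edgeR adjusted p = 0.38) and without MM1S TAK-981 replicate 1 -0.52, and without MM1S Dex replicate 2 the second was -0.14 (edgeR adjusted p = 0.398) and without MM1S Dex replicate 1 -0.46. Leaving out either MM1S vehicle library also ended both calls, at -0.30 for TAK-981 and -0.29 for Dex, with edgeR adjusted p from 0.104 to 0.136. In MM1R its change with TAK-981 was 0.20 (edgeR adjusted p = 0.154).

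**Figure D5:**
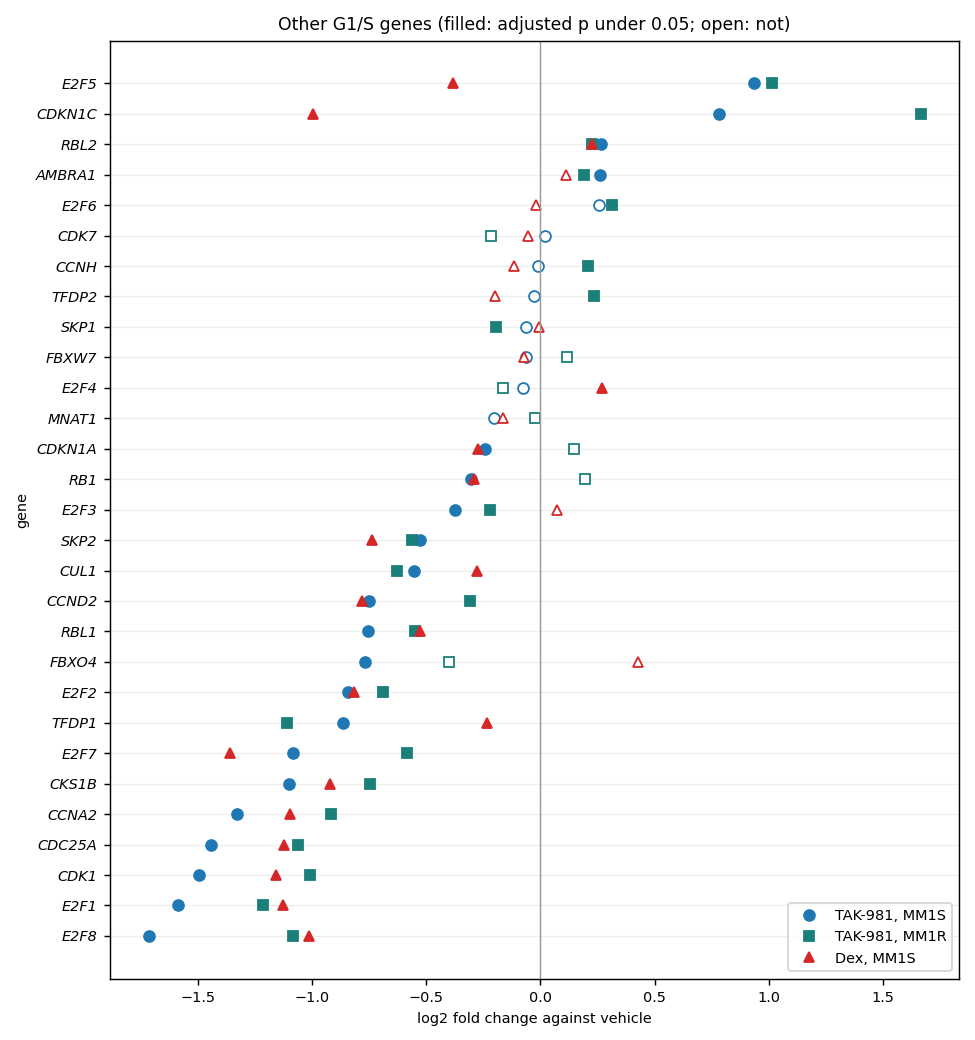
Log2 fold change against vehicle (horizontal axis) of the other G1/S genes (vertical axis, sorted by the change with TAK-981 in MM1S) for TAK-981 in MM1S (circles), TAK-981 in MM1R (squares) and Dex in MM1S (triangles); filled points had an edgeR adjusted p under the threshold of 0.05, and CDKN2A and CDKN2B are left out because of their counts of 0 to 15 in MM1S. E2F1, CDK1, CDC25A and CCNA2 lie at the low end for all 3 comparisons, and E2F5 and CDKN1C lie at the high end for TAK-981 in both lines.

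The genes whose levels ran most like each member's were sought over the 16 libraries, with log2 CPM centred within each line, among genes with a mean log2 CPM of at least 3. Such correlations share their libraries and treatments and are given as a description. CCNE1 was most like CCDC34 and PAQR4 (Pearson r of 0.996 and 0.995), CDK2 most like TIMELESS (0.996), and CCNE2 most like NEDD1 and CKS2 (0.973 and 0.969). TIMELESS acts at replication forks. CDK4 was most like ANP32B and FBL (0.995 and 0.993), the latter being the methyltransferase fibrillarin of the nucleolus. CCND3 was most like DOCK5 and H1FX-AS1 (0.987 and 0.983), CCND1 most like CSGALNACT2 and GPLD1 (0.968 and 0.965), and CDK6 most like ZNF460 and PTAR1 (0.944 and 0.932). CDKN1B was most like MAN1A1 and CYLD (0.987 and 0.984), CYLD being a deubiquitinase that restrains NF-kB, and CDKN2D was most like HLA-C and CNP (0.966 and 0.944). No gene named here was named for more than 1 of the 9 members.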

How the data were processed

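Total RNA of MM1S and MM1R cells was sequenced in 16 libraries after Ribo-Zero depletion, and the 10 genes were read from the table of raw counts per gene that the authors deposited. Per the submitters' processing notes, bcl2fastq 2.18.0.12, STAR 2.6.0, HTSeq 0.6.0, edgeR 3.28.1 and the build hg19 were used. Deposited counts came from HTSeq as whole numbers with no normalization, and whether counting used strand is not given in the sources used here. Reads from rRNA-depleted total RNA include unspliced transcripts, and counts cover the length in the table.

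Libraries were grouped by their labels. Genes were kept with filterByExpr at its defaults, scaled with TMM and fitted in R 4.3.3 with the robust quasi-likelihood model of edgeR 4.0.16 (limma 3.58.1), with 1 term per group on all 16 libraries and 8 residual degrees of freedom. P-values were adjusted by Benjamini-Hochberg over the 14215 genes tested, with a threshold of 0.05, all tests being two-sided. Log2 fold changes have fitted standard errors and 95% intervals, and log2 CPM for the likeness search used a prior count of 2. Alternatives were RLE, library size only, no filter, a replicate block, DESeq2 1.42.0, a fit restricted to the groups of each contrast, a minimum absolute log2 fold change of 1, and the omission of every library in turn, where the lone library of a group was assumed to vary like the others.

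The members and the lists were chosen with earlier results of these data known. Named were the 10 members in every comparison, CCND2, CDKN1A, RB1 and E2F1, up to 3 higher and 3 lower genes of the G1/S list with the smallest adjusted p for TAK-981 in both lines and for Dex in MM1S, and for each tested member the 2 genes most like it, of which 1 is not reported here. Promoter sequences are from RefSeq.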

Additional observations from a re-analysis of the deposited data

Results flagged for a closer look

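The responses of 8 gene and agent pairs differed between MM1R and MM1S by the interaction term of the edgeR fit, each coded as the response of MM1R minus that of MM1S on the log2 scale. For Dex the differences were 1.82 for CCND1, -1.84 for CCND3, 0.58 for CCNE1, 1.11 for CCNE2, 0.82 for CDK2, 0.48 for CDK6 and 0.31 for CDKN1B. Each of the first 5 kept its direction and its call under every alternative but the minimum absolute log2 fold change of 1, which CCNE1 and CDK2 did not reach. CDKN1B lost its call without any of 6 libraries, as given above, and CDK6 lost its Dex call without MM1R Dex replicate 1 (0.36, edgeR adjusted p = 0.0526). For TAK-981 the difference was 0.57 for CDK6, and its call was lost without any of 6 libraries.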

How the results depend on the processing

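Of 1494 log2 fold changes of the 9 tested members under an alternative, 1394 kept their direction and their side of the threshold, 46 lost a call, 14 gained one, and 40 changed sign, none of them (0) from a value that was called. With a minimum absolute log2 fold change of 1, members were called as follows, with the share of all genes called in parentheses: 3 for TAK-981 in MM1S (9.93%), 2 for TAK-981 in MM1R (9.63%), 3 for Dex in MM1S (7.6%), 5 for combo against vehicle in MM1S (17.7%), 0 for combo against vehicle in MM1R (8.93%), 3 for combo against Dex in MM1S (9.85%), 0 for combo against Dex in MM1R (8.41%), 2 for combo against TAK-981 in MM1S (6.89%), 1 for the interaction of the agents in MM1S (1.82%), 1 between the vehicle-treated lines (8.84%), 0 for the difference of the lines in TAK-981 response (0.563%) and 3 for that in Dex response (6.46%). Leaving out 1 library moved both the count of members and the share of all genes called for the difference of the lines in TAK-981 response. In the fit of only the groups compared, the calls for TAK-981 in MM1S of CCND1, CDK6, CDKN2D, RB1 and RBL2 were lost (edgeR adjusted p from 0.0504 to 0.0859), and DESeq2 did not call CCND1 there (adjusted p = 0.135). Small values near 0 changed sign as follows; the cause was not tested. For Dex in MM1R, CCNE1 was -0.00018 with no filter, CCNE2 0.0092 with library size only and 0.0055 in the fit of only the groups compared, and CDKN2D 0.0011 with library size only. The CDKN1B difference of the lines in TAK-981 response was 0.011 with RLE, 0.044 with library size only and 0.011 with DESeq2.

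With each library omitted in turn, the range for Dex in MM1R was -0.12 to 0.33 for CCND1, -0.11 to 0.035 for CCND3, -0.057 to 0.057 for CCNE1, -0.087 to 0.078 for CCNE2 and -0.16 to 0.12 for CDKN2D. For the interaction of the agents it was -0.19 to 0.26 for CCND1 and -0.12 to 0.30 for CCNE2 in MM1R, and -0.16 to 0.013 for CCNE1, -0.082 to 0.31 for CDK2 and -0.22 to 0.034 for CDK4 in MM1S. For combo against TAK-981 it was -0.13 to 0.30 for CCNE2, -0.094 to 0.0037 for CDK6 and -0.019 to 0.071 for CDKN1B in MM1R and -0.98 to 0.026 for CCNE2 in MM1S. For combo against vehicle in MM1S it was -0.057 to 0.0069 for CDK6, -0.074 to 0.013 for CDKN1B and -0.14 to 0.10 for CDKN2D, and for combo against Dex in MM1S -0.0010 to 0.26 for CDKN2D. It was -0.12 to 0.32 for CCND1 with TAK-981 in MM1R, -0.053 to 0.0063 for CDK6 between the lines, -0.080 to 0.081 for the CDKN1B difference in TAK-981 response and -0.019 to 0.26 for the CDKN2D difference in Dex response.

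The labels do not say whether libraries of the same replicate number belong together. The correlation of replicate differences ran from -0.01 to 0.26 over 12 pairs of groups within a line, 2 of them over 0.1. Between lines it ran from -0.01 to 0.19 over 16 pairs, 3 of them over 0.1. These correlations over all genes tested are no test of pairing. A replicate block within each line raised the share of all genes called for the difference in TAK-981 response from 4.16% to 14.5%. With a replicate block within each line, 8 members in place of 7 were called for Dex in MM1S, CDK4 being added (49.4% of all genes), 8 in place of 7 for combo against TAK-981 in MM1S with CDK6 (42.6%) and 3 in place of 2 for the interaction of the agents in MM1S with CCND1 (25.2%), and the other counts of members called were the same. Without the filter, edgeR called 30 genes for Dex in MM1R, 9 for combo against TAK-981 in MM1R and 19 for the interaction in MM1R, no member among them. With 2 libraries per group and 38 to 304 counts per library, CCNE2 and the other low genes CCND1 and CDKN2D have the widest intervals.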
